A study of Mus musculus with 6 samples.

Results

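The genes described here are 10 genes known for the axon and cytoskeleton of retinal ganglion cells: Nefl, Nefm, Nefh, Ina, Gap43, Stmn2, Tubb3, Sncg, Thy1 and Rbpms. They were taken by symbol. All 10 were found among the 55487 genes counted, and all 10 were among the 17275 genes that passed the filter on low counts. They were measured by bulk RNA sequencing of retinas of C57BL/6 mouse embryos at embryonic day 16.5, in 3 libraries labelled cKO and 3 labelled control. By genotype label, the cKO embryos were Foxp1 fl/fl with Six3-Cre, a Cre that is active in the developing retina, and the controls were Foxp1 fl/fl with no Cre. Every embryo thus carried loxP-flanked Foxp1 alleles. Which exons lie between the loxP sites is not stated there. Both eyes of an animal went into 1 library, and the 6 embryos were littermates. By label, cKO 1 was female, cKO 2 and 3 were male, control 1 and 2 were female and control 3 was male. Libraries are named here by these labels. The series concerns Foxp1, a forkhead transcription factor, in early retinal development.

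Retinal ganglion cells are the output neurons of the retina, and their axons form the optic nerve. They are among the first neurons that retinal progenitors produce, so that in the late embryo many of them are extending axons. An axon is held by microtubules, polymers of alpha and beta tubulin, and by neurofilaments, which assemble from the light, medium and heavy subunits together with alpha-internexin. At its tip the growth cone turns microtubules and actin over. Several of the 10 genes are shared with other young neurons, such as amacrine and horizontal cells, so their RNA in a whole retina has more than 1 source.

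The targeted gene went against the labels. Foxp1 had 72.4, 75.5 and 68.8 CPM (read counts relative to the TMM-scaled library size) in cKO 1, 2 and 3, against 50.8, 41.1 and 46.2 CPM in control 1, 2 and 3. It was higher in every library labelled cKO (log2 fold change 0.65, edgeR adjusted p 4.63e-05). The sex-linked genes Xist and Ddx3y matched the labelled sex in 4 of 6 libraries. Set against the labelled sex of the same number in the other group, they matched in 6 of 6. The authors' deposited table, named as a comparison of cKO with control, calls 681 genes (8.97% of those with an adjusted p), and all 681 have the opposite sign in the edgeR fit to the counts as labelled. Each direction below that comes from the counts follows the labels as deposited, written as cKO over control. This holds also where a gene is described simply as higher or lower in cKO. Directions from the authors' deposited table are given as listed there. Whether the labels of the 2 groups were exchanged was not tested. The 10 genes all have the opposite sign in that table. Total counts ranged from 23707761 to 25714620 per library.

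Of the 10 genes 0 passed an edgeR adjusted p of 0.05 between the labelled groups, where 0.781% of all tested genes did. At an unadjusted p of 0.05 there were 4 (16.5% of all tested genes passed in either direction), all higher in the libraries labelled cKO (Stmn2, Sncg, Tubb3 and Gap43), where 7.83% of all tested genes passed in that direction. DESeq2 called 1 of the 10, Stmn2, with 1.23% of all tested genes called higher and 3.28% called in either direction. Limma-voom called 0 of the 10, with 0.585% of all tested genes called and 0.249% called higher. The authors' deposited table calls 2 of the 10, Stmn2 and Sncg, both lower in cKO, where it calls 2.98% of its genes in that direction. The groups did not overlap for 3 genes (Stmn2, Tubb3 and Sncg), all higher in cKO, where 10.8% of all tested genes showed that order. For 0 of the 10 was every library labelled cKO the lower, where 9.30% of all tested genes showed that order and 20.1% did not overlap either way. Of the 10 fold changes 5 were positive and 5 negative, with a median log2 fold change of 0.03, beside 0.00 over all tested genes. In bulk samples, fewer cells of a type and less RNA per cell cannot be told apart. Replicates are separate animals by label, and p-values refer to the spread between them. The biological coefficient of variation was 8.37%.

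**Figure D1:**
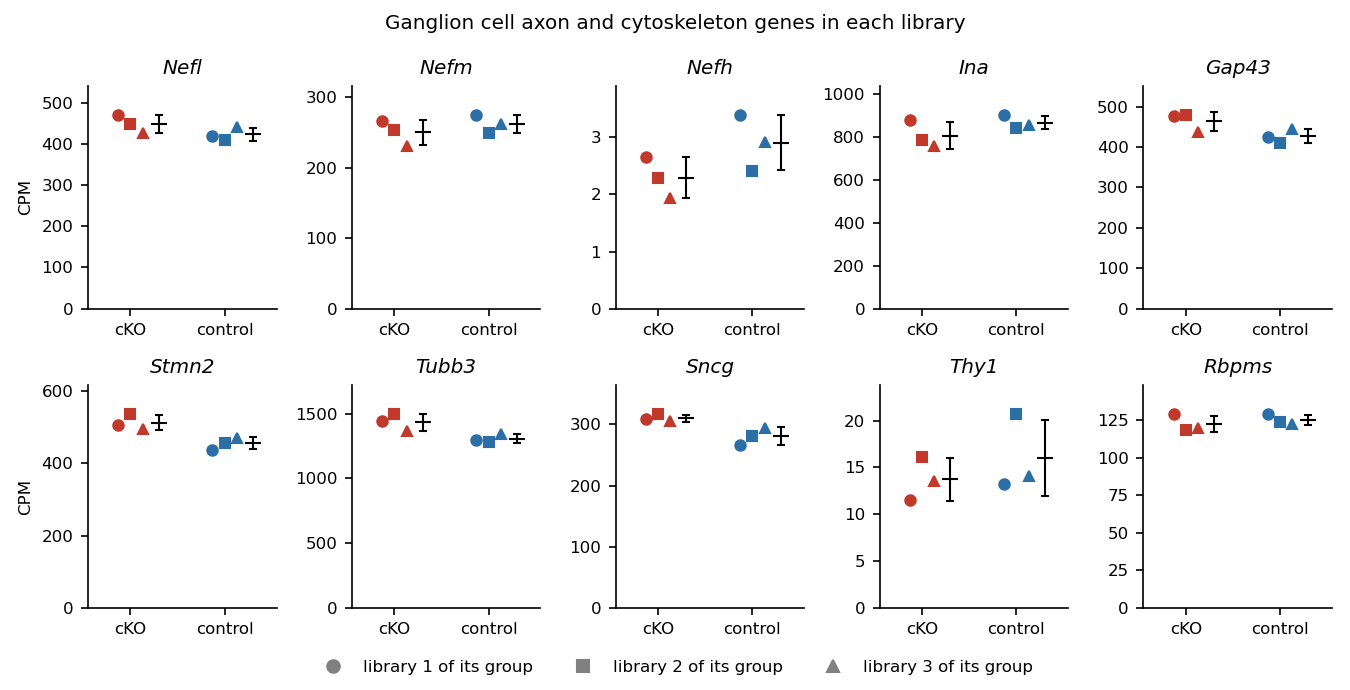
Expression of the 10 genes in CPM (vertical axes, each starting at 0), for libraries labelled cKO (red) and control (blue), where each symbol is 1 library, its shape gives the replicate number and the bar shows mean ± SD (n = 3 each). Stmn2, Tubb3 and Sncg lie higher in all 3 libraries labelled cKO than in any labelled control, and the groups overlap for the other 7 genes.

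Together the 10 genes took 0.446%, 0.442% and 0.420% of the counts in cKO 1, 2 and 3, against 0.413%, 0.409% and 0.425% in control 1, 2 and 3. The groups overlapped in this share, because the library labelled cKO 3 lay below the library labelled control 3. That library, cKO 3, was the lowest of its group for 8 of the 10 genes. Per kilobase of the longest protein-coding transcript, Tubb3 was highest, at 767 ± 35.3 CPM per kb in libraries labelled cKO and 699.5 ± 17.6 CPM per kb in those labelled control (SD, n = 3 each). Sncg, Gap43, Ina, Stmn2, Nefl, Nefm, Rbpms and Thy1 followed in that order in both groups. Nefh was lowest, at 0.574 ± 0.0909 CPM per kb in cKO and 0.727 ± 0.122 CPM per kb in control (SD, n = 3 each). Neighbours in this order were separated in all libraries of a group, except Ina and Stmn2 in those labelled cKO and Sncg and Gap43 in those labelled control. Over summed exon length, which counts retained introns of Stmn2, Nefl stood above Stmn2 in both groups.

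The neurofilament genes encode proteins that share a central rod. Its conserved end is shown because it shows how far reads from these genes can be told apart. The sequences are the 36 coding bases at the end of the rod in GENCODE M21 transcripts (GRCm38, the same build as mm10; for Nefl chr14:68086085-68086508, plus strand, across an intron), with capitals at bases that differ from Nefl:
Nefl: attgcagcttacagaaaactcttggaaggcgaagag
Nefm: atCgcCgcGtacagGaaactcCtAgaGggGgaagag
Nefh: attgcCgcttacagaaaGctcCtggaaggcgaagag
Ina: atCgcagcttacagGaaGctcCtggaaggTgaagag
Prph: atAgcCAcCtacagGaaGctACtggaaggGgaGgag
Nefh differed from Nefl at 3 of the 36 bases, Ina at 5, Nefm at 8 and Prph at 10. Prph encodes peripherin, the related filament of peripheral neurons. Over the whole coding sequence the longest run of identical bases between Nefl and any of the other 4 was 17, well under the 150 cycles of each read.

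Nefl, the light subunit that neurofilaments need to assemble (chromosome 14, 68083863 to 68089095, plus strand, mm10), had 469.9, 449 and 426 CPM in cKO 1, 2 and 3, against 419, 409 and 441 CPM in control 1, 2 and 3. The groups overlapped, since control 3 exceeded cKO 3. Its difference was 0.08 on the log2 scale (standard error 0.05, edgeR adjusted p 0.475), and its 95% interval ran from -1.90% to 14.5%.

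Nefm, the medium subunit, overlaps Nefl on the opposite strand (chromosome 14, 68082590 to 68124846, minus strand). It had 266, 253 and 231 CPM in cKO 1, 2 and 3, against 275, 249.6 and 261 CPM in control 1, 2 and 3. The groups overlapped (log2 fold change -0.07, standard error 0.06, edgeR adjusted p 0.621). Nefl and Nefm share 1108 exonic bases, 32.8% of the exons of Nefl and 19.2% of those of Nefm. No source used here says whether counting used the strand, so the counts of both are uncertain there.

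Nefh, the heavy subunit that accumulates as axons mature (chromosome 11, 4938754 to 4948064, minus strand), was low. It had 68, 55 and 49 counts in cKO 1, 2 and 3, against 81, 60 and 69 counts in control 1, 2 and 3. The groups overlapped, and at this depth the 95% interval of the difference ran from -40.9% to 5.82% (edgeR adjusted p 0.430).

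Ina, alpha-internexin, which enters filaments of developing neurons early (chromosome 19, 47014698 to 47025327, plus strand), was the most abundant of the 4 in CPM. It had 880.0, 785 and 757 CPM in cKO 1, 2 and 3, against 903, 845 and 855 CPM in control 1, 2 and 3. Library cKO 1 lay among the controls while cKO 2 and cKO 3 lay below all of them. Its difference was -0.10 on the log2 scale (standard error 0.06, edgeR adjusted p 0.378). Of its exons, 14.1% overlap Nt5c2 on the other strand.

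Ratios among the subunits within each library separated the labelled groups in 3 of 4 cases, where the levels of all 4 subunits overlapped. All 3 have Nefl as the denominator, so they are not independent of one another. For levels, 20.1% of all tested genes did not overlap in either direction, and no such share was computed for ratios. The ratio of Nefm to Nefl counts was 0.567, 0.563 and 0.542 in cKO 1, 2 and 3, against 0.655, 0.610 and 0.592 in control 1, 2 and 3. The ratio of Ina to Nefl counts was 1.87, 1.75 and 1.78 in cKO 1, 2 and 3, against 2.16, 2.07 and 1.94 in control 1, 2 and 3. In both ratios every library labelled cKO lay below every library labelled control. The ratio of Nefm to Nefl is uncertain because both genes share exonic bases and the strand setting of the counting is not known here. The ratio of Nefh to Nefl showed the same order, at 0.00566, 0.00509 and 0.00454 in cKO and 0.00809, 0.00591 and 0.00660 in control. The ratio of Ina to Nefm overlapped, at 3.30, 3.10 and 3.28 in cKO and 3.29, 3.39 and 3.27 in control. In all 12 ratios of gene pairs were computed within libraries after the levels were known and are given without a test. Ratios within a library show unequal counts, not which gene of a pair differed.

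**Figure D2:**
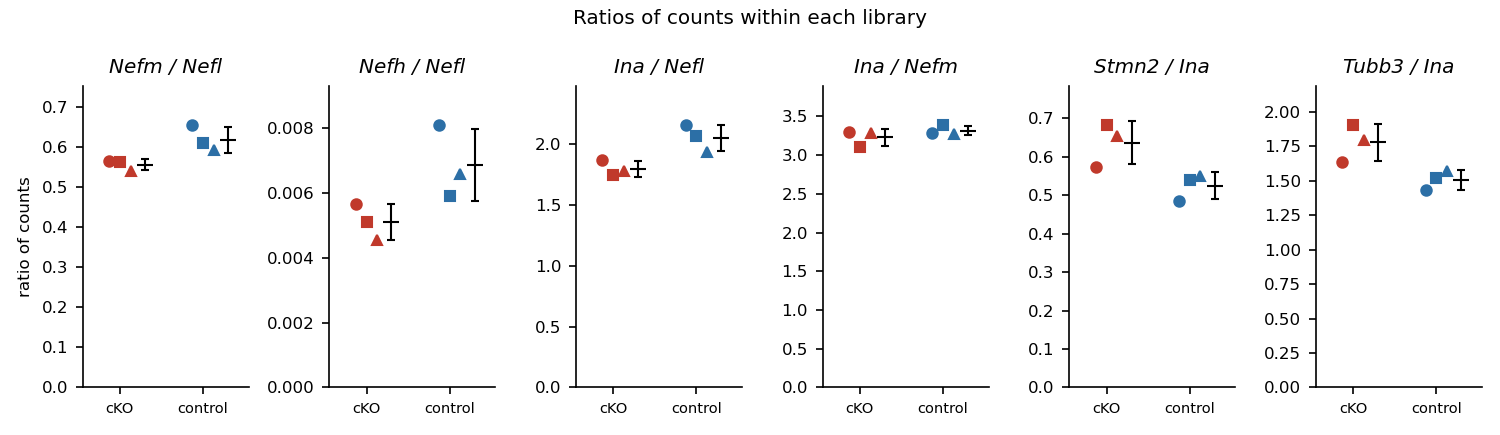
Ratios of read counts of gene pairs within each library (vertical axes, no unit, each starting at 0) for libraries labelled cKO (red) and control (blue), with circles, squares and triangles for replicates 1, 2 and 3 and bars for mean ± SD (n = 3 each). The groups are separate for Nefm, Nefh and Ina over Nefl and for Stmn2 and Tubb3 over Ina, and overlap for Ina over Nefm, while Nefm and Nefl share exonic bases.

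Stmn2, also called SCG10, binds tubulin and destabilises microtubules in growth cones. The start of its coding sequence is shown beside its paralogues because Stmn1 differs from Stmn2 there at more bases than Stmn3 and Stmn4 do. The sequences are the first 60 coding bases (GENCODE M21, GRCm38; for Stmn2 chr3:8509612-8541881, plus strand, across an intron), with capitals at bases that differ from Stmn2, or face a gap, in a global alignment:
Stmn2: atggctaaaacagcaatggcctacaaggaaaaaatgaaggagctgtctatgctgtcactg
Stmn1: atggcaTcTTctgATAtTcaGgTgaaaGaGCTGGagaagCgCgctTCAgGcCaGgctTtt
Stmn3: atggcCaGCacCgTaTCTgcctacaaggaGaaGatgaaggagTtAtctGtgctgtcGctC
Stmn4: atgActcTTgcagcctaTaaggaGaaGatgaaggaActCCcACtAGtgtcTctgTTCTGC
Stmn3 differed from Stmn2 at 15 of the 60 bases, Stmn4 at 20 and Stmn1 at 24. The longest identical run over the whole coding sequence was 43 bases, between Stmn2 and Stmn1.

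Stmn2 (chromosome 3, 8509360 to 8561606, plus strand) had 504, 535 and 495 CPM in cKO 1, 2 and 3, against 437, 456 and 469.8 CPM in control 1, 2 and 3. All 3 libraries labelled cKO were above all 3 labelled control, with control 3 nearest. Its difference was 0.17 on the log2 scale (standard error 0.05, edgeR adjusted p 0.102), and the 95% interval ran from 4.39% to 21.4%. DESeq2 gave an adjusted p of 0.0147, and over all alternatives the adjusted p ranged from 0.0147 to 0.738. Besides DESeq2, the fits with the replicate number as a block called it. The authors' deposited table lists Stmn2 at -0.17 with an adjusted p of 0.026. The log2 fold change stayed between 0.14 and 0.20 when each library was left out in turn, and none of those fits called it.

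The other stathmins, which act on microtubules in the same way, had positive fold changes as well. Stmn3 was called, at 221 ± 5.60 CPM in libraries labelled cKO and 188 ± 6.02 CPM in those labelled control (SD, n = 3 each), and the log2 fold change was 0.23 (edgeR adjusted p 0.033). Leaving out cKO 2, cKO 3, control 1 or control 2 in turn ended that call. Stmn1, the form that is also abundant in dividing cells, had 1173 ± 37.4 CPM in cKO and 1055 ± 58.2 CPM in control (SD, n = 3 each), which is 0.15 on the log2 scale (edgeR adjusted p 0.144). Stmn4 differed by 0.11 on the log2 scale with an edgeR adjusted p of 0.292. Of the 4 stathmins 1 was called higher and 0 lower, where 0.295% of all tested genes were called higher, and the median log2 fold change was 0.16. All 4 passed an unadjusted p of 0.05, where 7.83% of all tested genes passed with cKO higher. DESeq2 called 3 higher, where it called 1.23% of all tested genes higher. The authors' deposited table calls 3, all lower in cKO, where it calls 2.98% of its genes in that direction.

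Tubb3 encodes class III beta tubulin, the isotype that marks neurons. The end of its coding sequence is shown because the proteins of the beta tubulin isotypes differ from one another mainly in this tail. At the level of bases, differences also lie over the rest of the coding sequence. The sequences are the last 60 coding bases with the stop codon (GENCODE M21, GRCm38; for Tubb3 chr8:123421623-123421682, plus strand), with capitals at bases that differ from Tubb3, or face a gap, in a global alignment:
Tubb3: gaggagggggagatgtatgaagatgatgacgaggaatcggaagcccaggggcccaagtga
Tubb2a: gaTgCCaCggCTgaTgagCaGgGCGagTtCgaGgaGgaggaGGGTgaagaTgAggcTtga
Tubb5: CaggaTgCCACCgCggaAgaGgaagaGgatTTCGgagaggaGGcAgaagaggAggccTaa
Tubb2a differed from Tubb3 at 23 of these bases and Tubb5 at 20. Over the whole coding sequence the identity of Tubb3 with Tubb2a was 85.8%, and the longest identical run was 45 bases.

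Tubb3 (chromosome 8, 123411424 to 123422015, plus strand) had 1440.3, 1494 and 1363 CPM in cKO 1, 2 and 3, against 1294, 1282 and 1344 CPM in control 1, 2 and 3. The groups did not overlap, but cKO 3 and control 3 were close. On the log2 scale it differed by 0.13 (standard error 0.05, edgeR adjusted p 0.186), and the 95% interval ran from 0.03 to 0.24 on the log2 scale. DESeq2 gave an adjusted p of 0.0524, and over all alternatives it ranged from 0.0524 to 0.833.

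EdgeR called 0.295% of all tested genes higher. Of the 12 tubulin isotypes tested, 8 had positive fold changes and 4 negative, and 1 was called, higher. That gene was Tuba1a, the main alpha tubulin of young neurons, with 3703, 3935 and 3365 CPM in cKO 1, 2 and 3, against 3182, 3022 and 3133 CPM in control 1, 2 and 3. The groups did not overlap, and the log2 fold change was 0.24 (edgeR adjusted p 0.042). The call was lost without cKO 2, control 1 or control 2, and with labelled sex as a covariate (edgeR adjusted p 0.0541, in a range of 0.00225 to 0.722 over all alternatives). The beta tubulins Tubb2b (log2 fold change 0.10, edgeR adjusted p 0.328), Tubb2a (0.14, edgeR adjusted p 0.222), Tubb5 (0.07, edgeR adjusted p 0.508), Tubb4b (0.07, edgeR adjusted p 0.637) and Tubb4a (-0.06, edgeR adjusted p 0.628) were not called.

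Gap43, a phosphoprotein of the growth cone membrane (chromosome 16, 42248442 to 42340651, minus strand), had 476, 479 and 437 CPM in cKO 1, 2 and 3, against 426, 411 and 446 CPM in control 1, 2 and 3. Libraries cKO 1 and cKO 2 lay above all controls and cKO 3 lay below control 3. On the log2 scale it differed by 0.12 (standard error 0.05, edgeR adjusted p 0.267), and the 95% interval ran from 0.493% to 17.4%.

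Of the 14 growth cone and actin genes tested, 12 had positive and 2 negative fold changes, with a median log2 fold change of 0.03. EdgeR called 1 higher and 0 lower, where 0.295% of all tested genes were called higher. The called gene was Tmsb4x, thymosin beta 4, which binds actin monomers, at 370.1 ± 15.4 CPM in libraries labelled cKO and 316 ± 14.1 CPM in those labelled control (SD, n = 3 each), which is 0.23 on the log2 scale (edgeR adjusted p 0.049). Its call was lost without cKO 2, cKO 3, control 1 or control 2, and with labelled sex as a covariate (edgeR adjusted p 0.0604, in a range of 0.00208 to 0.714 over all alternatives). The 3 most abundant of the list, Marcks (log2 fold change 0.03, edgeR adjusted p 0.825), Marcksl1 (0.02, edgeR adjusted p 0.897) and Cfl1 (0.05, edgeR adjusted p 0.666), were not called. At an unadjusted p of 0.05, 5 of the list passed, 4 higher and 1 lower. Over all tested genes 7.83% passed higher and 8.64% lower. DESeq2 called 1 higher and 1 lower, where it called 1.23% of all tested genes higher and 2.04% lower.

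Sncg encodes gamma-synuclein, a small protein of axons that is enriched in ganglion cells within the retina (chromosome 14, 34370274 to 34374789, minus strand). It had 309, 317 and 305 CPM in cKO 1, 2 and 3, against 266, 282 and 295 CPM in control 1, 2 and 3. The groups did not overlap, and the libraries labelled cKO lay within a narrow band, at 310.2 ± 5.74 CPM beside 281 ± 14.4 CPM in control (SD, n = 3 each). On the log2 scale it differed by 0.14 (standard error 0.05, edgeR adjusted p 0.166), and the 95% interval ran from 2.42% to 19.2%. The authors' deposited table lists Sncg at -0.16 with an adjusted p of 0.048. Its paralogue Sncb differed by -0.02 on the log2 scale and was not called (edgeR adjusted p 0.958).

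Thy1, a glycolipid-anchored surface protein used as a marker of mature ganglion cells (chromosome 9, 44043384 to 44048579, plus strand), was low at this age and the most variable of the 10 in the libraries labelled control. It had 11.5, 16.1 and 13.5 CPM in cKO 1, 2 and 3, against 13.3, 20.7 and 14.1 CPM in control 1, 2 and 3. The groups overlapped, and library control 2 stood highest. On the log2 scale it differed by -0.23 (standard error 0.21, edgeR adjusted p 0.690), and without control 2 it was 0.00.

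Rbpms, an RNA-binding protein that marks ganglion cells in the mammalian retina (chromosome 8, 33782643 to 33929863, minus strand), had 129, 119 and 119.9 CPM in cKO 1, 2 and 3, against 129, 124 and 122 CPM in control 1, 2 and 3. The groups overlapped, and the log2 fold change was -0.03 (standard error 0.05, edgeR adjusted p 0.821). The 95% interval, from -8.49% to 4.86%, was the narrowest of the 10 in percent. Its paralogue Rbpms2 differed by -0.02 on the log2 scale (edgeR adjusted p 0.913).

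**Figure D3:**
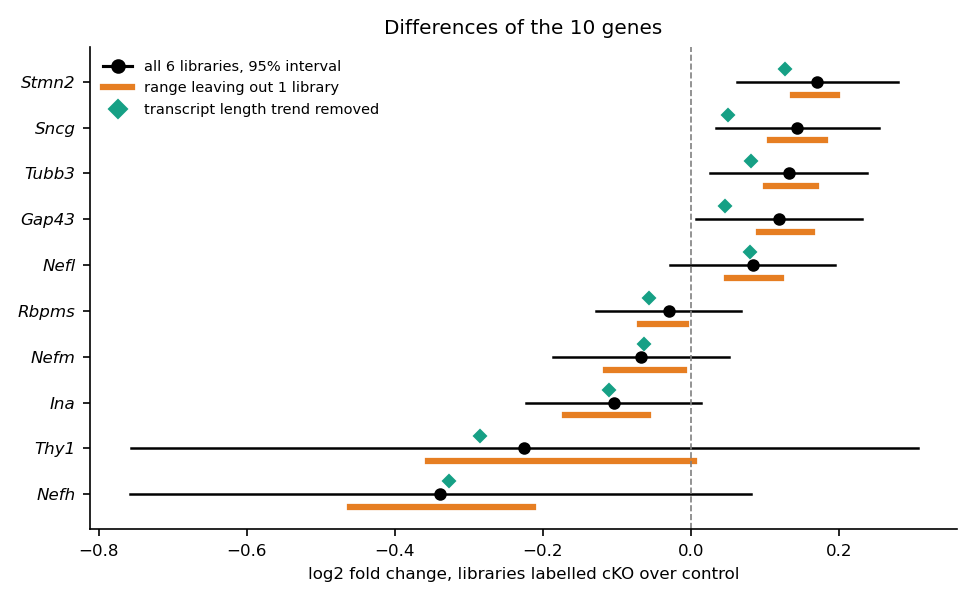
Log2 fold change of each of the 10 genes, libraries labelled cKO over control (horizontal axis), with black points and lines for the edgeR estimate and its 95% interval over all 6 libraries, orange bars for the range when each library is left out, and green diamonds for the estimate with the trend over transcript length removed. Stmn2, Sncg, Tubb3 and Gap43 have intervals above 0, and the diamonds of all 4 lie nearer to 0 than their points. Removing the exon length trend instead, not drawn here, gave 0.18 for Stmn2, beside 0.17 at its point.

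The genes with positive fold changes were also set against the neurofilaments within each library. The ratio of Stmn2 to Ina counts was 0.573, 0.682 and 0.654 in cKO 1, 2 and 3, against 0.484, 0.540 and 0.550 in control 1, 2 and 3. The ratios of Gap43, Tubb3 and Sncg to Ina also did not overlap, each being higher in the libraries labelled cKO. These ratios share Ina as the denominator and are not independent of one another. Their numerators were taken for their positive fold changes, and the fold change of Ina was negative. That choice favours separation, so these ratios add no support beyond the levels. No share of separated ratios over all gene pairs was computed. Relative to Nefl the groups overlapped for Stmn2, at 1.07, 1.19 and 1.16 in cKO and 1.04, 1.12 and 1.07 in control. The ratios of Sncg to Nefl, Gap43 to Stmn2 and Rbpms to Sncg overlapped as well.

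The length of a gene moved with its fold change. Spearman's rho of log2 fold change with summed exon length was -0.27 across 17251 tested genes, and genes are no independent replicates. For genes within 10% of the transcript length of Sncg, 852 bases, the median log2 fold change was 0.10, beside 0.14 for Sncg itself. For Gap43, at 1420 bases, it was 0.08, beside 0.12 for the gene. For Tubb3, at 1868 bases, it was 0.06 beside 0.13, and for Stmn2, at 2073 bases, 0.04 beside 0.17.

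With the exon length trend of each library removed, the log2 fold change was 0.04 for Gap43, 0.07 for Tubb3, 0.07 for Sncg and 0.18 for Stmn2. With the trend over transcript length removed instead, a choice made after seeing the data, it was 0.05 for Gap43, 0.08 for Tubb3, 0.05 for Sncg and 0.13 for Stmn2. Stmn2 had the largest positive value of the 10 in both. Ina had -0.14 and -0.11, Nefm -0.05 and -0.06, and Nefl 0.05 and 0.08. None of the 10 was called in either fit. What lies behind the length trend was not tested.

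**Figure D4:**
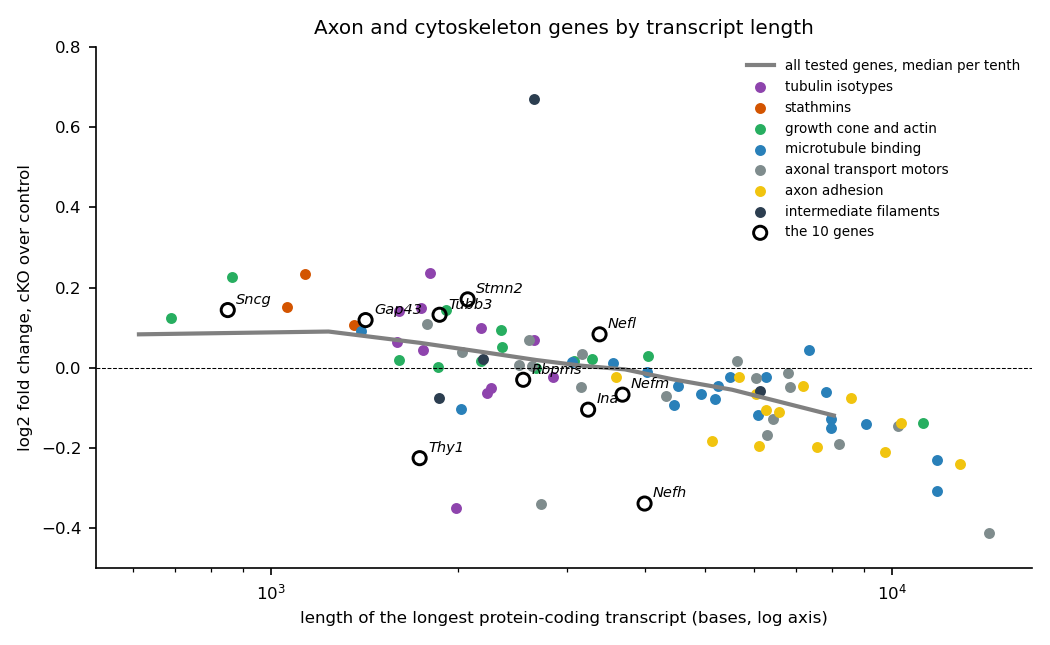
Log2 fold change, libraries labelled cKO over control (vertical axis), against length of the longest protein-coding transcript in bases (horizontal log axis), with filled points for genes of the axon and cytoskeleton lists, open circles for the 10 genes and the grey line for the median of all tested genes in 10 bins of length. The line runs from 0.08 in the bin of the shortest genes to -0.12 in that of the longest. Sncg, Gap43, Tubb3 and Stmn2 lie on the short side and the axon adhesion genes mostly on the long side.

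Signs in the other axon lists differed between lists of long and of short genes. Of 20 microtubule-binding genes 16 had negative and 4 positive fold changes, of 18 subunits of axonal transport motors 11 negative and 7 positive, and all 14 axon adhesion genes, Thy1 among them, were negative. Of these 3 lists 0 genes were called by edgeR, where 84 of all tested genes, 0.486%, were called lower. At an unadjusted p of 0.05, 6, 6 and 5 of them passed, all lower in cKO except 1 transport motor gene. Over all tested genes 8.64% passed with cKO lower and 7.83% with cKO higher. DESeq2 called 1, 2 and 1, all lower, where it called 2.04% of all tested genes lower. Limma-voom called 0 in each, where it called 0.336% of all tested genes lower. The authors' deposited table calls 3, 4 and 3 of them, all higher in cKO, where it calls 5.99% of its genes in that direction. The medians were -0.06 for microtubule binding, -0.04 for transport motors and -0.12 for axon adhesion. The median summed exon lengths of these lists were 8090, 6492 and 10558 bases, beside 1919 for the stathmins, 2246 for the tubulins and 3922 for all tested genes. With the exon length trend removed, 7 of 20 microtubule-binding genes, 8 of 18 transport motor subunits and 4 of 14 adhesion genes were positive. Their medians were -0.0059, -0.0097 and -0.048. With the transcript length trend removed, 9 of 20 microtubule-binding genes, 7 of 18 transport motor subunits, as before, and 5 of 14 adhesion genes were positive, with medians of -0.02, -0.01 and -0.03. All 4 stathmins stayed positive in both fits, with medians of 0.12 (exon length) and 0.095 (transcript length). With either trend removed, Tuba1a, Stmn3 and Tmsb4x were not called.

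Map1b, a large microtubule-associated protein of growing axons, was the most abundant of the microtubule-binding genes in CPM. It had 1634, 1454 and 1445 CPM in cKO 1, 2 and 3, against 2112, 1880.4 and 1611 CPM in control 1, 2 and 3. The groups overlapped, since control 3 lay between cKO 1 and cKO 2, and the log2 fold change was -0.31 (edgeR adjusted p 0.182). The authors' deposited table lists Map1b at 0.36 with an adjusted p of 0.030. Dync1h1, the heavy chain of the motor that carries cargo back to the cell body, differed by -0.41 on the log2 scale (edgeR adjusted p 0.286) and is listed in the authors' deposited table at 0.48 with an adjusted p of 0.044. Among adhesion genes, Ncam1, which is abundant on young axons, had -0.11 (edgeR adjusted p 0.332), and the authors' deposited table lists it at 0.15 with an adjusted p of 0.035. Cntn2, a contactin of early axons, had -0.05 (edgeR adjusted p 0.792), and Robo2, a receptor for Slit guidance cues, -0.07 (edgeR adjusted p 0.528).

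Vim and Nes, intermediate filaments of progenitors rather than axons, were not called, with log2 fold changes of 0.02 (edgeR adjusted p 0.893) and -0.06 (edgeR adjusted p 0.792). Of the 8 intermediate filament genes tested, Nefl, Nefm, Nefh and Ina included, 3 were positive and 5 negative, and 0 were called by edgeR, DESeq2 or limma-voom or passed an unadjusted p of 0.05.

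Markers of the ganglion cells themselves were present in every library. Of 8 ganglion cell transcription factors 4 had positive and 4 negative fold changes, with a median log2 fold change of -0.04, and 1 was called, Atoh7, the bHLH factor that progenitors need to make ganglion cells. It was higher in the libraries labelled cKO, at 533 ± 25.4 CPM, than in those labelled control, at 434 ± 26.3 CPM (SD, n = 3 each; log2 fold change 0.30, edgeR adjusted p 0.018). Over all tested genes edgeR called 0.295% higher and 0.486% lower. The call of Atoh7 was lost without cKO 2 or control 2 and with the exon length trend removed, where the log2 fold change was 0.22. Factors of differentiating ganglion cells were not called: Pou4f2 had 0.06 (edgeR adjusted p 0.563), Pou4f1 -0.12 (edgeR adjusted p 0.372), Pou4f3 -0.13 (edgeR adjusted p 0.427) and Isl1 0.06 (edgeR adjusted p 0.614) on the log2 scale. Ebf3 had -0.12 (edgeR adjusted p 0.279) and Ebf1 -0.07 (edgeR adjusted p 0.432). Only for Ebf1 among these 6 did the groups not overlap, with cKO lower, where 9.30% of all tested genes showed that order. Of 7 factors with an adjusted p in the authors' deposited table, it calls 2, Atoh7 lower and Ebf3 higher in cKO. Ebf3 is listed there at 0.16 with an adjusted p of 0.044. That table calls 2.98% of its genes lower and 5.99% higher. Of 8 further ganglion cell markers 4 had positive and 4 negative fold changes, with a median log2 fold change of -0.0032. Only 1 of them was called, Chrnb3, a nicotinic receptor subunit, which was lower in cKO (log2 fold change -0.34, edgeR adjusted p 0.033). The authors' deposited table lists Chrnb3 at 0.32 with an adjusted p of 0.027. The edgeR call of Chrnb3 was lost without cKO 2, cKO 3, control 1 or control 2. It was also lost with the exon or the transcript length trend removed, where the log2 fold change was -0.32 (edgeR adjusted p 0.0662) and -0.31 (edgeR adjusted p 0.0791), in a range of 0.00178 to 0.714 over all alternatives.

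Other cell types that share or could add these transcripts were read from marker lists. Of 10 amacrine markers 9 had negative fold changes and 1 was called lower, and of 7 horizontal cell markers 6 were negative and 2 were called lower, where edgeR called 0.486% of all tested genes lower. At an unadjusted p of 0.05, 5 amacrine and 2 horizontal markers passed, all lower in cKO, where 8.64% of all tested genes did, and DESeq2 called 3 and 2 lower, where it called 2.04%. The groups did not overlap for 5 amacrine and 3 horizontal markers, with cKO lower in each, where 9.30% of all tested genes showed that order. Tfap2b is in both lists, so its calls and its CPM count in each. The amacrine and horizontal factor Tfap2b differed by -0.25 on the log2 scale (edgeR adjusted p 0.033), and the horizontal factor Prox1 by -0.24 (edgeR adjusted p 0.017). Both calls were lost without cKO 2, cKO 3 or control 2 and with either length trend removed, and that of Tfap2b also without control 1. With the exon and the transcript length trend removed, the log2 fold change of Tfap2b was -0.23 and -0.19 and that of Prox1 -0.19 and -0.13. The summed level of the horizontal list was 413 to 435 CPM in libraries labelled cKO and 467 to 520.1 CPM in those labelled control, and that of the amacrine list 1203 to 1274 CPM in cKO and 1293 to 1309 CPM in control. Pax6, which is also in the progenitor list, had the highest mean normalized count of the amacrine list in the authors' deposited table, 16110. No background share was computed for such sums. The part of amacrine and horizontal cells in the levels of the 10 genes was not tested.

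Of 10 progenitor markers and 7 tested photoreceptor precursor markers 0 were called by edgeR. At an unadjusted p of 0.05, 1 and 2 passed, where 16.5% of all tested genes did. DESeq2 called 0 and 1, where it called 3.28% of all tested genes. Peripheral neurons, which could bring neurofilament RNA from outside the retina, had summed markers of 7.23 to 8.69 CPM in libraries labelled cKO and 7.57 to 9.11 CPM in those labelled control. Prph, their filament, had 1.84 to 2.33 CPM in cKO and 1.93 to 2.40 CPM in control. Lens markers differed widely between libraries, with summed levels of 49.0, 15.6 and 210.2 CPM in cKO 1, 2 and 3, against 53.3, 211 and 772 CPM in control 1, 2 and 3, and 0 of 7 tested lens genes were called by edgeR or DESeq2 or passed an unadjusted p of 0.05. The list of optic nerve glia summed to 56.7 to 71.4 CPM in libraries labelled cKO and 62.6 to 72.8 CPM in those labelled control. Most of that was Olig2, which retinal progenitors express too, at 53.5 CPM on average in cKO and 54.3 CPM in control. Pax2, a marker of optic nerve head astrocytes, averaged 5.59 CPM in cKO and 7.99 CPM in control, and the astrocyte markers Gfap, S100b and Aqp4 each stayed under 1 CPM in every library. Of the 5 genes of this list that were tested, 0 were called by edgeR or DESeq2 or passed an unadjusted p of 0.05, and their part in the levels of the 10 genes was not tested.

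The genes whose pattern over the 6 libraries was most like the mean of the 10 (centred log2 CPM) were Ptbp3, Creb3l2, Kansl2, Btbd2 and Actb, taken from 10083 protein-coding genes with a mean of at least 10 CPM outside the lists. Their Pearson correlations with it were 0.991, 0.989, 0.985, 0.976 and 0.975. Actb, the beta actin gene, had 3887, 3882 and 3494 CPM in cKO 1, 2 and 3, against 3691, 3741 and 3737 CPM in control 1, 2 and 3. It was lowest in cKO 3, as the mean of the 10 was, and was not called (edgeR adjusted p 0.943). These correlations rest on 6 libraries that share their depth and composition, and the genes were picked as the highest of many.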

How the data were processed

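Retinas of 6 embryos of 1 litter were sequenced, 3 labelled cKO and 3 labelled control. Per the labels' protocols, libraries were made with a directional kit from RNA depleted of ribosomal RNA and sequenced as pairs of 150 cycles. The submitters' processing notes name mm10 as the build and list DESeq2 1.32.0, featureCounts 1.5.1, STAR 2.7.6a and cutadapt 2.8, with no settings. The authors deposited whole-number counts per gene, not normalized. Per the file headers, the authors' deposited comparison table holds a mean normalized count (a signal), a log2 fold change, its standard error and statistic (each a score), and p-values before and after adjustment. Values from it were copied unchanged.

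Columns were matched to samples by the labels' descriptions. Genes were kept by filterByExpr, which left 17275, and compared with edgeR 4.0.16 (R 4.3.3): TMM normalization, robust quasi-likelihood fits, genotype alone and Benjamini-Hochberg adjustment over all tested genes at 0.05. Standard errors and 95% intervals came from each fold change with its F statistic. CPM used TMM-scaled library sizes. Alternatives used DESeq2 1.42.0, limma-voom (limma 3.58.1), other normalizations and filters, labelled sex, a replicate block, each library left out, and offsets for the length trend (lowess, span 0.3). Libraries of a group were compared in pairs, and the chi-square divided by its degrees of freedom was 7.39 to 12.5, so none was a duplicate. Scripts were tested on simulated data.

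Depth was 23707761 to 25714620 counts per library, and the lowest count of any of the 10 genes in a library was 49. Sequences and lengths came from GENCODE M21 (GRCm38). The 10 genes, the lists and the tests were chosen with earlier results of these data known. Named were the 10 genes, Foxp1, the called genes of each list, paralogues of the 10, the most abundant genes of each list and the 5 genes of closest pattern. Not all of the abundant genes are printed, and Dync1h1, Pou4f1, Pou4f2, Pou4f3, Isl1, Ebf1, Ebf3, Pax2, Olig2, Vim, Nes, Gfap, S100b and Aqp4 were named as markers after their values were seen.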

Additional observations from a re-analysis of the deposited data

How the results depend on the processing

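Of the 10 genes, 0 were called in the edgeR fit. DESeq2 called 1 (Stmn2). With the replicate number as a replicate block 2 were called (Stmn2 and Sncg, both higher in the libraries labelled cKO), and with the block and the exon length trend removed together 2 (Stmn2 higher, Ina lower). Every other alternative, each library left out included, called 0. Same-numbered libraries did not deviate together in each pair (correlations 0.118, -0.0616 and 0.246), so the numbers are not taken to pair animals. The median log2 fold change of the 10 genes, 0.03, ranged from -0.01 without cKO 1 to 0.06 without cKO 3 and was -0.01 with the transcript length trend removed, each of which differs from 0.03 by less than the SD between replicates, 0.05. Thy1, at -0.23, ranged from -0.35 without cKO 2 to 0.0040 without control 2.

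Over all genes, 135 calls became 742 with no filter on low counts, 83 with a filter of 1 CPM, 10 with no robust estimation, 566 with DESeq2, 1065 with the replicate block, 38 with the exon length trend removed, 476 with that and the block, 31 with the transcript length trend removed, 9 without cKO 2 and control 2, where sex-linked genes and label disagree, and 19 (without cKO 2) to 778 (without control 3) with each library left out. The 3 calls in the axon and cytoskeleton lists (3 higher, 0 lower) became 9 (3 higher, 6 lower), 3, 0, 10 (5 higher, 5 lower), 16 (6 higher, 10 lower), 0, 7 (4 higher, 3 lower), 0 and 0 in that order of settings. With labelled sex as a covariate there were 3 (1 higher, 2 lower), with DESeq2 size factors in edgeR 2, both higher, and 0 to 13 with each library left out, the 13 (5 higher, 8 lower) without control 3. The 4 calls in the cell class lists became 0 with no robust estimation, 7 with DESeq2, 9 with the replicate block, 0 with the exon length trend removed, 7 with that and the block, 1 with the transcript length trend removed, 0 without cKO 2 and control 2, and 0 to 7 with each library left out. The causes were not tested.

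With 3 libraries a group, the 95% intervals of Nefl, Nefm, Ina, Gap43, Stmn2, Tubb3, Sncg and Rbpms were narrower than those of Nefh and Thy1, the genes of lowest count.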

Other observations

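Tuba1c, an alpha tubulin isotype of the tubulin list, separated the libraries along another line than the labelled groups; this was noticed after its values were seen and is not tested. It had 49.7, 57.7 and 142 CPM in cKO 1, 2 and 3, against 49.7, 133 and 135 CPM in control 1, 2 and 3. The 3 libraries with low Tuba1c were those with 14143 to 17599 counts of Xist, the RNA of the inactive X chromosome, and the 3 with high Tuba1c were those with 802 to 899 counts of Ddx3y, a gene of the Y chromosome. Tuba1c itself lies on chromosome 15 (99029891 to 99038110, plus strand, mm10). The standard error of its log2 fold change was 0.65 in the edgeR fit by genotype alone and 0.07 in the authors' deposited table. The neighbouring tubulins on chromosome 15 did not follow it: Tuba1a had 3703, 3935 and 3365 CPM in cKO 1, 2 and 3, against 3182, 3022 and 3133 CPM in control 1, 2 and 3.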
